A study of Mus musculus with 12 samples.

Results

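The genes of major histocompatibility complex (MHC) class II presentation were examined in purified mouse intestinal stem cells (ISCs) of young and old mice. The set held 8 genes, Cd74, H2-Aa, H2-Ab1, H2-Eb1, H2-DMa, H2-DMb1, H2-DMb2 and Ciita, which were picked by name from the 54232 genes of the count table, and 7 of them had enough reads to be tested among 13368 tested genes. Messenger RNA was measured by 3′-biased RNA-seq in 12 libraries, 3 in each of 4 groups. SM6 young and SM6 old were ISCs of C57/Bl6 wild-type mice aged 2 and 22 months, isolated by the SM6 strategy, a sort on surface markers that keeps EPCAM+ and EPHB2high epithelial cells and leaves out cells with CD31, found on endothelium, or CD45, found on blood cells. Lgr5-GFP young and Lgr5-GFP old were ISCs of mice of the same 2 ages with the Lgr5-EGFP-IRES-CreERT reporter, CreERT2 in the paper's Methods. In it a green fluorescent protein is made where the stem cell gene Lgr5 is active. All 12 labels name the SM6 sort, but the legend of a supplementary figure has the reporter mice sorted by GFP. Strain and isolation therefore changed together, and their parts cannot be told apart. Each library came from 1 female mouse, no mouse received a treatment, and isolation dates were not given in the sources used here.

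Library totals ran from 970472 to 3815425 reads with a median of 1424340. Levels are given as CPM, reads scaled to the same total in each library. Every pair of replicates differed by more than counting noise. All 17 ISC markers of the list used here were tested, and Lgr5 itself was at 332 ± 22.2, 253 ± 28.9, 258 ± 44.5 and 233 ± 15.1 CPM (mean ± SD, n = 3) in SM6 young, SM6 old, Lgr5-GFP young and Lgr5-GFP old, the order in which group values are given from here on. Markers of Paneth cells, the antimicrobial secretory cells that sit between stem cells at the crypt base, were also present in every library and varied widely, and they are given beside the class II results.

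MHC class II molecules carry peptides to the cell surface for CD4+ T cells. H2-Aa and H2-Ab1 encode the chains of the I-A molecule, and H2-Eb1 the beta chain of the I-E molecule, which needs its own alpha chain. An alpha and a beta chain pair in the endoplasmic reticulum with the invariant chain Cd74, which blocks the peptide groove until it is cut away in endosomes. H2-DM, built from the products of H2-DMa with H2-DMb1 or H2-DMb2, then exchanges the last fragment of the invariant chain for a peptide. Ciita is the transactivator that switches these genes on: it does not bind DNA itself but joins a complex of RFX, CREB and NF-Y proteins on the X and Y boxes of class II promoters, and interferon gamma induces it in cells that are not professional antigen-presenting cells. Intestinal epithelial cells, ISCs among them, are known to make class II molecules.

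The promoters of 4 members are shown first, to set the known X and Y boxes of class II promoters beside the sequences. RefSeq promoters on build GRCm38.p6 were matched for 5 of the 8 members, H2-Aa, H2-Eb1, H2-DMa, H2-DMb1 and H2-DMb2. Cd74, H2-Ab1 and Ciita were not matched. The stretch from 140 to 21 bases before the start site is printed 5′ to 3′ in the direction of the gene, with matches to an X core (CTNGNAACT) and to a Y box (GATTGG, or CCAATC where it lies on the other strand) in capitals.
H2-Aa, chr17:34287844-34287963, minus strand: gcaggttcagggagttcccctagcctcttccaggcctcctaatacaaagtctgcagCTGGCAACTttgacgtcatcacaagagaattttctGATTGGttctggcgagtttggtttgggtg
H2-Eb1, chr17:34305727-34305846, plus strand: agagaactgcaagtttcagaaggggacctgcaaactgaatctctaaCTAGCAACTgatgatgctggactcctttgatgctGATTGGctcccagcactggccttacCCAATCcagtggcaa
H2-DMb1, chr17:34153051-34153170, plus strand: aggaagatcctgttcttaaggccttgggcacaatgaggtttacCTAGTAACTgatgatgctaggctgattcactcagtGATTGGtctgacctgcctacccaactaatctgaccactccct
H2-DMb2, chr17:34145109-34145228, plus strand: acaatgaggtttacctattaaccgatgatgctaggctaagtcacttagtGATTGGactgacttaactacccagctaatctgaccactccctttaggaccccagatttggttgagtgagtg

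H2-Aa and H2-DMb1 had the X core 26 bases before the Y box, and H2-Eb1 had it 25 bases before. Both motifs were written down after these promoters had been read, so their presence here is a description. Searched on both strands, the X core stood in 4.1% of 32851 mouse promoters of the same length and the Y box in 16.1%. An X core with a Y box 18 to 40 bases downstream on the same strand stood in 9 promoters, or 0.0274%, and 3 of those 9 belonged to members. Of the others, BC051142 lies in the same region of chromosome 17, and its transcript had 22 reads in the 12 libraries together. The promoter of H2-DMb2 had the Y box and no X core. Over the 41 bases from the X core to the Y box of H2-DMb1 it differed at 5 positions, 2 of them in the X core, G4T and T9C, with positions counted from 1 at the first base of the X core and the base of H2-DMb1 given first. Of the 2 listed H2-DMa promoters, neither had an X core, and one had a Y box at 199 bases before its start. No match says only that these letters are not in this window.

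**Figure D1:**
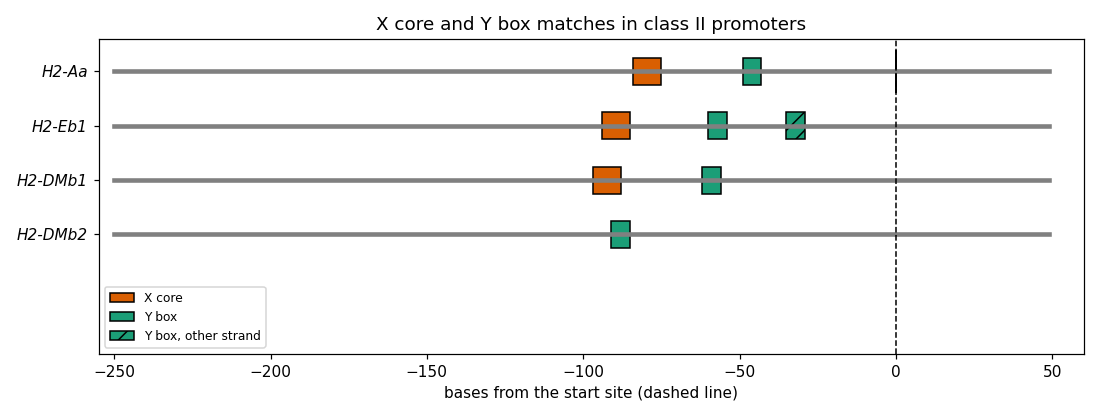
Matches to the X core (orange) and the Y box (green, hatched on the other strand) along the 300 bases of each promoter, with distance from the start site in bases on the horizontal axis and 1 gene per line. H2-Aa, H2-Eb1 and H2-DMb1 hold an X core 25 or 26 bases before a Y box, and H2-DMb2 holds the Y box alone.

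Cd74, which encodes the invariant chain (chr18:60803848-60812652, GRCm38), was at 71.6, 58.8 and 19.5 CPM in the 3 SM6 young libraries and at 123.1, 244 and 304 CPM in the 3 SM6 old libraries. In Lgr5-GFP young it was at 167, 686 and 73.3 CPM, and in Lgr5-GFP old at 122.6, 90.3 and 93.5 CPM. Every old SM6 library was thus above every young one, while in Lgr5-GFP the young libraries spread around the old. As mean ± SD over 3 mice, this gave 49.96 ± 27.1 CPM for young and 224 ± 92.2 CPM for old SM6, then 309 ± 330 CPM for young and 102 ± 17.8 CPM for old Lgr5-GFP. The order of means was Lgr5-GFP young, SM6 old, Lgr5-GFP old, SM6 young. The first neighbours in it overlapped, and the libraries of the other neighbours did not. SM6 old lay above Lgr5-GFP old by as little as 123.1 against 122.6 CPM.

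The 3 chain genes took the same shape in SM6 with more overlap. H2-Ab1, the I-A beta chain (chr17:34257689-34269419), was at 82.5, 37.7 and 13.7 CPM in SM6 young and 53.0, 115 and 132 CPM in SM6 old. In Lgr5-GFP it was at 71.8, 377 and 40.15 CPM in young and 39.99, 35.0 and 31.8 CPM in old mice. Here the SM6 groups overlapped, because the first SM6 young library was above the first SM6 old one, and every Lgr5-GFP old library was below every young one, by as little as 39.99 against 40.15 CPM. H2-Aa, the I-A alpha chain (chr17:34282744-34287823, minus strand), had 32, 12 and 1 reads in SM6 young, 19, 59 and 57 in SM6 old, 67, 173 and 13 in Lgr5-GFP young and 18, 17 and 18 in Lgr5-GFP old. In CPM its means were 8.93 ± 9.55, 33.5 ± 16.4, 63.3 ± 87.1 and 14.4 ± 2.73 in that order. H2-Eb1, the I-E beta chain (chr17:34305867-34316674), was at 19.4, 12.7 and 5.06 CPM in SM6 young and 17.1, 48.2 and 58.3 CPM in SM6 old. In Lgr5-GFP it was at 41.6, 151 and 15.3 CPM in young and 29.3, 30.1 and 19.3 CPM in old mice. For every tested member, H2-Aa and H2-Eb1 among them, 1 library, the second of Lgr5-GFP young, stood above all 11 others.

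Of the genes of the peptide exchange factor H2-DM, H2-DMa had 532 reads in all, H2-DMb1 231 and H2-DMb2 2. H2-DMa (chr17:34119541-34139101) was at 24.9, 18.8 and 7.95 CPM in SM6 young, 21.04, 41.4 and 39.9 CPM in SM6 old, 36.2, 82.2 and 12.004 CPM in Lgr5-GFP young and 22.7, 17.9 and 20.3 CPM in Lgr5-GFP old. H2-DMb1 (chr17:34153072-34160230) had 13, 5 and 4 reads in SM6 young, 13, 22 and 44 in SM6 old, 40, 42 and 10 in Lgr5-GFP young and 16, 8 and 14 in Lgr5-GFP old. In CPM the SM6 old libraries of H2-DMb1, at 10.1, 14.9 and 35.1, all lay above the SM6 young ones, at 7.89, 2.77 and 2.89. H2-DMb2 (chr17:34143307-34151555), the second beta chain gene, had 2 reads in 1 SM6 old library and none in the other 11. A count of 0 allows up to 3 reads in a library, counting error only, so this gene was at or under that limit throughout. Of the 72-base words in the last 500 bases of H2-DMb1 transcripts, 20.8% also occur somewhere in H2-DMb2 transcripts, so such reads could have been split or dropped by the counting. The annotated H2-DMa gene also overlaps Brd2, and 5.27% of its words were shared with it.

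Ciita, the transactivator (chr16:10480059-10528418), had between 0 and 27 reads in a library. There were 9, 4 and 0 reads in SM6 young, 3, 10 and 11 in SM6 old, 27, 25 and 8 in Lgr5-GFP young and 4, 7 and 1 in Lgr5-GFP old. The means were 2.56 ± 2.75, 5.97 ± 3.30, 11.8 ± 10.6 and 3.11 ± 2.39 CPM. The order of group means seen for Cd74 was also that of H2-Aa, H2-Eb1, H2-DMa and Ciita, while for H2-Ab1 Lgr5-GFP old came last and for H2-DMb1 SM6 old came first. In all these orders but that of Cd74, neighbouring groups overlapped. The genes H2-Oa and H2-Ob, whose products hold back H2-DM in some cell types, and H2-Eb2 and H2-Ea-ps had no read in any library. H2-Ea-ps is an I-E alpha chain gene named as a pseudogene, so reads of H2-Eb1 do not show that an I-E molecule was made.

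**Figure D2:**
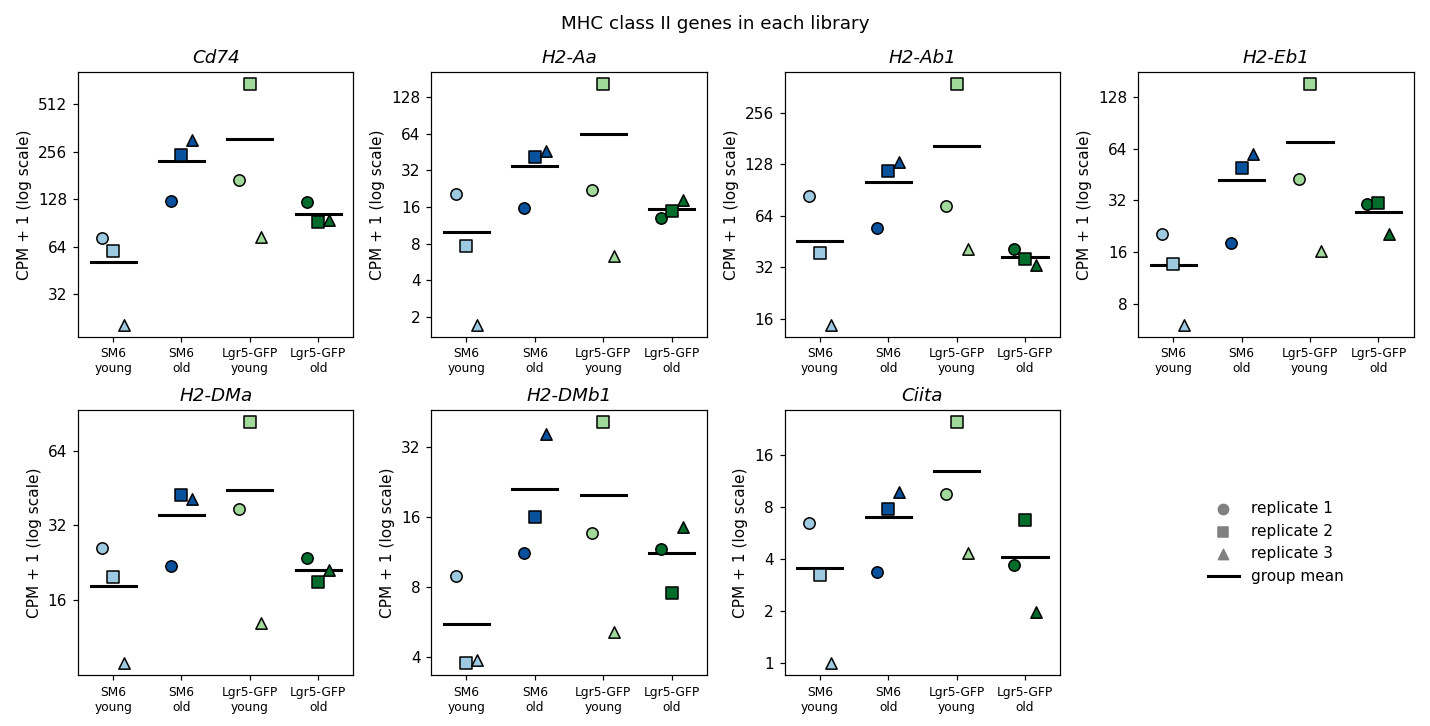
Level of each tested class II gene in each of the 12 libraries, as CPM + 1 on a log axis, with colours for the 4 groups, shapes for replicates and a line for the group mean. The second Lgr5-GFP young library (square) is the highest of its group for all 7 genes, and the third SM6 young library (triangle) is the lowest of its group for 6 of 7; H2-DMb2, at 0 in 11 libraries, is left out.

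Class II genes were compared between old and young ISCs within SM6 first, by edgeR's quasi-likelihood test on all 12 libraries with Benjamini-Hochberg adjustment over the 13368 genes. Cd74 rose 4.42-fold in old SM6 ISCs (log2 2.14, SE 0.53, 95% interval 1.05 to 3.23, adjusted p = 0.0267 by edgeR). It was the 1 member of 7 tested that passed, against 0.643% of all genes higher in old ISCs and 2.42% in either direction. The other 6 members had log2 differences from 0.96 for H2-DMa to 2.12 for H2-DMb1, with adjusted p from 0.09 to 0.623 (edgeR, Benjamini-Hochberg). All 7 differences were above 0 and their median was 1.70, beside a median of -0.01 over all genes. At an unadjusted p under 0.05, 4 of 7 members were higher, against 5.45% of all genes. In 2 of 7, Cd74 and H2-DMb1, no old library overlapped a young one, against 7.74% of all genes. DESeq2 called H2-DMb1 (log2 2.16, adjusted p = 0.0393). The call on Cd74 was lost with DESeq2 (adjusted p = 0.102) and with a robust quasi-likelihood fit (adjusted p = 0.329). It was also lost without the second or the third library of either SM6 group, where the adjusted p from edgeR lay between 0.0687 and 0.141.

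In Lgr5-GFP ISCs the same 7 genes had lower means in old mice, and none passed the test, against 0.471% of all genes in either direction. The log2 differences ran from -2.11 for H2-Ab1 (SE 0.59, 95% interval -3.33 to -0.89, adjusted p = 0.134 by edgeR) to -0.72 for H2-DMb1 (adjusted p = 0.771 by edgeR). Their median was -1.55, and that of all genes was -0.03. At an unadjusted p under 0.05, 6 of 7 were lower, against 5.84% of all genes. H2-Ab1 was the 1 member without overlap between old and young libraries, against 7.95% of all genes. These values rested on the second Lgr5-GFP young library: without it the difference of Cd74 went from -1.55 to -0.24, and those of H2-Aa and H2-DMb1 went to 0.06 and 0.24. DESeq2 called none of the members either.

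**Figure D3:**
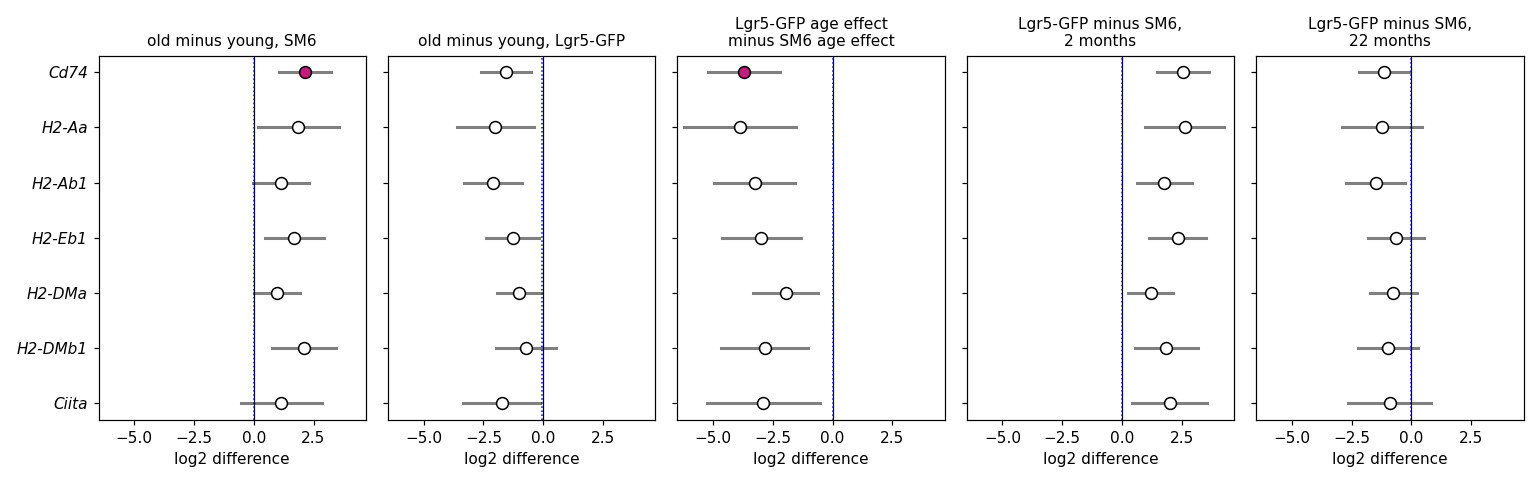
Log2 difference of each tested class II gene in 5 comparisons, with 95% intervals from the edgeR quasi-likelihood fit. The filled points, Cd74 in SM6 and Cd74 in the difference of the age effects, passed an adjusted p of 0.05, and the dotted line marks the median of all 13368 genes.

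The age effects in the 2 isolations were then set against each other by the interaction term, the Lgr5-GFP age effect minus the SM6 age effect. Cd74 passed this test (log2 -3.70, SE 0.73, 95% interval -5.21 to -2.19, adjusted p = 0.0128 by edgeR), the 1 member of 7, against 0.606% of all genes in that direction and 0.658% in either. The age effect of Cd74 was thus 12.97-fold lower in Lgr5-GFP than in SM6. The other 6 had differences from -1.96 for H2-DMa to -3.86 for H2-Aa, with adjusted p from 0.0737 for H2-Ab1 to 0.410 for Ciita (edgeR, Benjamini-Hochberg). Without the second Lgr5-GFP young library H2-Aa was at -1.80, H2-Ab1 at -1.80, H2-Eb1 at -1.82 and H2-DMa at -1.24. With all 12 libraries, all 7 had an unadjusted p under 0.05 in that direction, against 5.18% of all genes. The median was -2.98, and that over all genes was 0.00354. Log2 differences above 0 in SM6 and below 0 in Lgr5-GFP, the pattern of all 7, were found in 24.7% of all genes. Both age effects enter this contrast, so it is no separate support for either of them. Leaving out any 1 of the 12 libraries kept the Cd74 call, with differences from -4.18 to -2.38 and adjusted p up to 0.0448, the difference nearest to 0 being that without the second Lgr5-GFP young library. The call was lost with DESeq2 (adjusted p = 0.0626), with limma voom and quality weights (adjusted p = 0.0672) and with a robust quasi-likelihood fit (adjusted p = 0.379).

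Averaged over both isolations, no member passed the test, against 2.66% of all genes. The average differences ran from -0.48 for H2-Ab1 to 0.70 for H2-DMb1, with 3 of 7 above 0 and adjusted p from 0.567 to 0.998 (edgeR, Benjamini-Hochberg). With a library left out, the average difference of H2-DMb1 ran from 0.37 to 1.18 and that of Cd74 from 0.05 to 0.95. With all libraries, no member had an unadjusted p under 0.05, against 12.8% of all genes, and DESeq2 called none.

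Between isolations at a fixed age, all 7 log2 differences, Lgr5-GFP minus SM6, were above 0 at 2 months and below 0 at 22 months. At 2 months the log2 differences ran from 1.21 for H2-DMa to 2.63 for H2-Aa with a median of 1.99. Without the second Lgr5-GFP young library the median was 0.91, with Cd74 at 1.26, H2-Aa at 0.57, H2-DMa at 0.49 and H2-Ab1 at 0.32. None of 7 passed the test, against 0.0898% of all genes, and Cd74 was nearest (log2 2.57, SE 0.53, adjusted p = 0.0546 by edgeR). All 7 had an unadjusted p under 0.05, against 3.67% of all genes higher, and Cd74 alone had libraries that did not overlap, against 6.38% of all genes. At 22 months the differences ran from -1.48 for H2-Ab1 to -0.64 for H2-Eb1 with a median of -0.97. Without the third SM6 old library the median was -0.61, with H2-Eb1 at -0.31 and H2-DMb1 at -0.30. None passed, against 0.718% of all genes, with adjusted p from 0.418 to 0.803 (edgeR, Benjamini-Hochberg), and 2 of 7 had an unadjusted p under 0.05, against 5.56% of all genes lower. The same 2, Cd74 and H2-Ab1, had libraries that did not overlap, against 7.41% of all genes. For Cd74 the nearest libraries were at 123.1 CPM in SM6 and 122.6 CPM in Lgr5-GFP. DESeq2 called no member at either age. These comparisons use the same libraries as the age effects.

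The members varied together from library to library. Over the 12 libraries, Pearson's r of log2(CPM + 1) between 2 members ran from 0.713, for Ciita with H2-DMb1, to 0.970, for Cd74 with H2-Eb1, with a median of 0.917 over 21 pairs. After each group's mean was subtracted, it ran from 0.657 to 0.981 with a median of 0.924, so the relation was also present among mice of the same age and isolation. Without the libraries farthest from the median level, the third of SM6 young and the second of Lgr5-GFP young, the pairs ran from 0.409 to 0.907 with a median of 0.806 over 10 libraries. The points share library preparation, depth and composition, and the reference level of the chains had an r of -0.04 with the log of the library total.

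Within groups the libraries kept an order across members. Among the SM6 young libraries the first was highest for 7 of 7 members and the third lowest for 6 of 7. Among the SM6 old libraries the first was lowest for 7 of 7 and the third highest for 6 of 7. In Lgr5-GFP young the second library was highest and the third lowest for 7 of 7, whereas in Lgr5-GFP old each of the 3 libraries was highest for 2 or 3 members. Summed over the members, the level ran from 49.9 CPM in the third SM6 young library to 1524 CPM in the second Lgr5-GFP young library. The spread within a group was widest in Lgr5-GFP young, 154 to 1524 CPM, and narrowest in Lgr5-GFP old, 197 to 240 CPM.

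**Figure D4:**
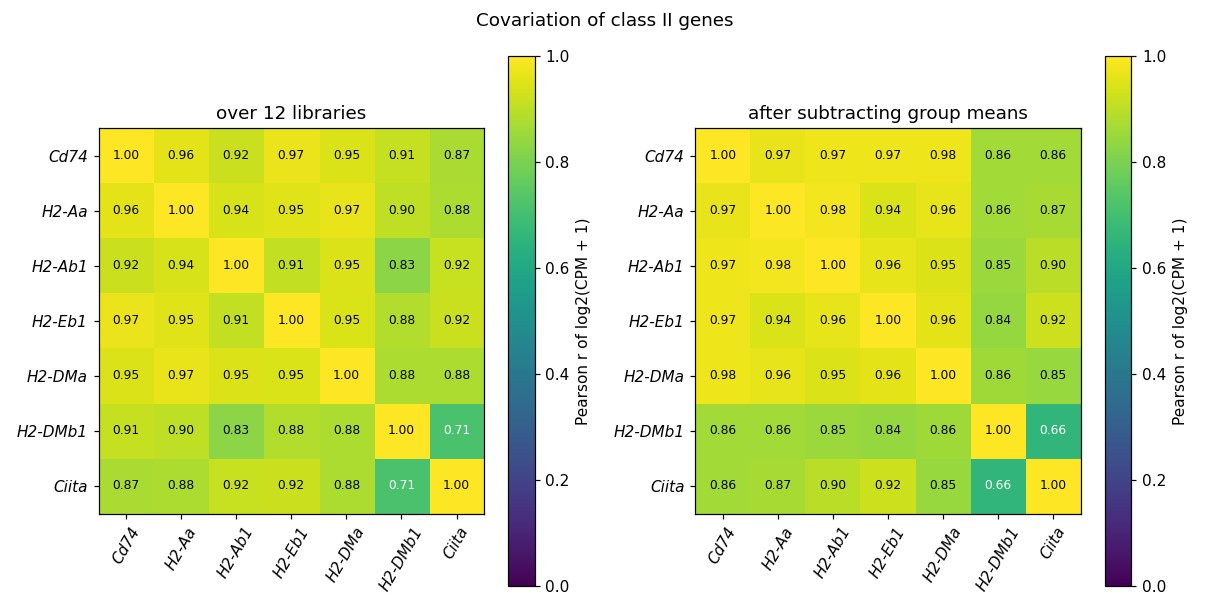
Pearson's r of log2(CPM + 1) between tested class II genes, over 12 libraries on the left and after subtraction of group means on the right, with colour from 0 to 1. Cd74, the 3 chains and H2-DMa are at 0.908 or above with one another on the left, and the lowest value in both panels is that of Ciita with H2-DMb1.

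Ratios between members were also taken within each library. The ratio of Cd74 to H2-Ab1 reads, with 1 read added to each, was 1.27 ± 0.358 in young and 2.24 ± 0.114 in old SM6, and 1.99 ± 0.292 in young and 2.82 ± 0.250 in old Lgr5-GFP (SD over 3 libraries). In both isolations every old library was above every young one. The ratio of H2-Eb1 to H2-Ab1 was 0.330 ± 0.0811 and 0.400 ± 0.0591 in young and old SM6, with overlap, and 0.457 ± 0.107 and 0.740 ± 0.123 in young and old Lgr5-GFP, without overlap. The ratio of H2-DMb1 to H2-DMa was 0.307 ± 0.125 and 0.584 ± 0.266 in young and old SM6, with overlap. In Lgr5-GFP it was 0.403 ± 0.0745 in young and 0.520 ± 0.148 in old mice, also with overlap. The ratios to H2-Ab1 were not among those planned, and no share over other gene pairs was taken. Ratios to H2-Aa rested on as few as 1 read and spread widely, from 1.79 to 10.0 for H2-Ab1. These ratios compare libraries and not the amounts of the proteins, and no test was run on them.

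Of the 8 genes listed for the proteins that Ciita joins at the promoter, 7 were tested and none passed in any of the 6 comparisons (0 by edgeR, with 0 to 3 of 7 at an unadjusted p under 0.05). Rfxap, a subunit of RFX, was at 22.3 ± 3.02, 18.9 ± 4.88, 25.4 ± 5.10 and 12.1 ± 1.07 CPM in SM6 young, SM6 old, Lgr5-GFP young and Lgr5-GFP old, and Nfyb, a subunit of NF-Y, at 64.1 ± 5.54, 56.7 ± 1.68, 68.9 ± 14.2 and 52.1 ± 12.2 CPM. Rfx5, the DNA-binding subunit of RFX, had at most 4 reads in a library and was not tested. The summed level of the 8 genes ran from 176 to 236 CPM, and its r with the class II reference level was 0.01 over 12 libraries.

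Genes of interferon gamma signalling were present in every group. All 11 were tested and none passed in any comparison. Ifngr1, a receptor chain, was at 336 ± 27.5 and 229 ± 34.0 CPM in young and old SM6 (log2 -0.56, adjusted p = 0.0814 by edgeR). Irf1, a factor that binds the Ciita promoter induced by interferon gamma, was at 50.3 ± 6.79, 59.5 ± 10.2, 71.1 ± 26.6 and 46.1 ± 9.96 CPM in SM6 young, SM6 old, Lgr5-GFP young and Lgr5-GFP old, and its difference of the age effects was -0.85 (adjusted p = 0.436 by edgeR). The summed signalling genes had an r of -0.45 with the class II reference. Among 24 targets of interferon gamma, 15 had at most 3 reads in every library, Cxcl9 and Cxcl10 among them, 7 were tested and none passed. Irgm1, an immunity-related GTPase, was at 25.6 ± 1.07, 29.4 ± 4.63, 40.6 ± 9.62 and 31.5 ± 1.39 CPM. Its log2 difference in SM6 was 0.20 and that of Ifi47 0.35, while Irgm2 was at -0.72, Igtp at -1.07 and Gbp7 at -1.59, none of which passed. The summed level of the targets was 61.0 ± 5.68 CPM in young and 61.7 ± 18.4 CPM in old SM6, and 93.4 ± 37.2 and 70.2 ± 7.84 CPM in young and old Lgr5-GFP. It had an r of 0.70 with the class II reference level, and 0.848 after subtraction of group means, with the second Lgr5-GFP young library the highest in both, at 136 CPM for the targets. Without the libraries farthest from the median the r was 0.753.

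In the endosomal route, 13 of 14 genes were tested. On the average over both isolations Ctsh, a cathepsin, rose (log2 0.59, adjusted p = 0.0190 by edgeR) and Ctsl, a cathepsin that trims the invariant chain in some cells, fell (log2 -0.60, adjusted p = 0.0260 by edgeR), and no gene passed in any other comparison. Ctss, the cathepsin that makes the last cut of the invariant chain in many antigen-presenting cells, was at 52.8 ± 7.42, 57.1 ± 11.4, 74.4 ± 22.8 and 62.8 ± 10.2 CPM. Of 10 co-stimulatory genes 2 were tested, Cd80 and Cd83, and none passed, while Cd86, Cd40 and Tnfsf4 had no read. On the class I side 14 of 14 were tested, and the 1 call was Tapbp, which loads peptides on class I molecules, lower on average in old mice (log2 -0.48, adjusted p = 0.0248 by edgeR). The class I genes had a median difference of the age effects of -0.57, with 13 of 14 below 0 and 5 at an unadjusted p under 0.05, but none passed. H2-K1, a class I heavy chain, was at 198 ± 11.6, 207 ± 15.98, 252 ± 51.5 and 160 ± 12.3 CPM. The summed class I level had an r of 0.677 with the class II reference, and 0.181 without the libraries farthest from the median.

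The 6 members on chromosome 17 lie within 197 kb. Of 30 other genes within that span and 100 kb on either side, 9 were tested and none passed in any comparison. Psmb9 and Psmb8, subunits of the immunoproteasome, and Tap1 and Tap2, which carry peptides for class I molecules, lie between the members and had r of 0.837, 0.832, 0.668 and 0.662 with the class II reference. Psmb9 was at 39.9 ± 9.57, 75.3 ± 25.6, 62.3 ± 27.9 and 55.8 ± 15.3 CPM (log2 0.91 in SM6, adjusted p = 0.111 by edgeR). Of the others, Btnl2, a butyrophilin-like gene, had an r of 0.610, with log2 differences of 1.25 in SM6 and -0.75 in Lgr5-GFP that did not pass. Brd2 had an r of 0.167, Rxrb of 0.01, Ring1 of -0.15 and Btnl1, another butyrophilin-like gene, of -0.37. H2-DMa, whose annotation overlaps Brd2, had an r of 0.973 with the reference.

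Over all genes, likeness was measured as r with the mean log2(CPM + 1) of Cd74, H2-Aa, H2-Ab1 and H2-Eb1, across 8321 other tested genes with a mean of at least 10 CPM. The highest was Tmem126a, at 0.892, followed by Bak1, Agpat4, Bet1l, Ppp2r1a, Taf13, Mdp1, Psmb9, Bag3 and Stx7, the last at 0.834. The members outside the reference were as close or closer, with H2-DMa at 0.973, Ciita at 0.914 and H2-DMb1 at 0.904. After subtraction of group means the list became Chac2, at 0.916, Stx7, Sf3b3, Agpat4, Rcl1, Bak1, Rrp1, Dnmbp, AW112010 and Selenof, at 0.848. On this scale H2-DMa was at 0.974, and Ciita at 0.898 and H2-DMb1 at 0.866 were below Chac2. Stx7, Agpat4 and Bak1 were in both lists. With 12 libraries and 8321 genes, values of this size are a description only.

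Markers of blood cells were for the most part at few or no reads. Of 18 genes of dendritic cells and macrophages, 13 had at most 3 reads in every library, and Itgax, Adgre1, Flt3 and Ccr7 had none. Their summed level was 8.87 to 13.96 CPM in SM6 young, 10.9 to 32.8 in SM6 old, 9.52 to 33.4 in Lgr5-GFP young and 5.79 to 13.01 in Lgr5-GFP old. Much of the higher values was Lyz2, with 1 to 78 reads, whose sequence is close to that of the Paneth cell gene Lyz1. Of 12 B and plasma cell genes, 9 had at most 3 reads in every library and Cd79a and Bank1 had none, and the sum, 24.4 to 51.1 CPM, was mostly Blnk at 27 to 133 reads. Of 15 T cell and intraepithelial lymphocyte genes, 8 had at most 3 reads in every library, and the sum was 4.25 to 57.6 CPM in SM6 young, 9.59 to 22.6 in SM6 old, 17.6 to 59.6 in Lgr5-GFP young and 8.00 to 20.3 in Lgr5-GFP old. The second library of Lgr5-GFP young was the highest for both the T cell sum, at 59.6 CPM, and the class II sum. Over 12 libraries, the r with the class II reference was 0.499 for the dendritic cell and macrophage sum, 0.548 for the B and plasma cell sum and 0.188 for the T cell sum. Without the libraries farthest from the median of each sum these were 0.466, 0.550 and -0.13. The part of blood cells in the class II values was not tested. Of 10 stromal and endothelial genes, 1 was tested. No gene of these 4 lists passed in any comparison. In bulk libraries, fewer cells of a type and less RNA per cell cannot be told apart.

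Paneth cell markers had differences in the same directions as class II genes. All 10 were tested. In SM6 all 10 were higher in old mice, with a median log2 of 1.78 and 1 call, Defa22, and in Lgr5-GFP all 10 were lower, with a median of -2.64 and 2 calls, Mmp7 and Defa17. In the difference of the age effects 9 of 10 passed, Ang4, Mmp7, Itln1 and Lyz1 with the smallest adjusted p, and the median was -4.28. Their summed level was 87892, 35842 and 12824 CPM in SM6 young, 54800, 53916 and 328320 CPM in SM6 old, 315871, 136076 and 56821 CPM in Lgr5-GFP young and 22783, 24498 and 38942 CPM in Lgr5-GFP old. Its r with the class II reference was 0.699 over 12 libraries, 0.567 after subtraction of group means and 0.781 without the libraries farthest from the median. Class II and Paneth levels were highest in the same library in SM6 young, the first, and in SM6 old, the third. They were lowest in the same library in SM6 young and in Lgr5-GFP young, the third of each. The highest libraries were not the same in Lgr5-GFP: the second Lgr5-GFP young library, with the most class II reads, had 136076 CPM of Paneth genes, and the first, with the most Paneth reads of its group, had 359 CPM of class II genes. Without the 2 libraries of highest Paneth level, a choice made after seeing the data, the difference of the age effects of Cd74 was -3.73 (adjusted p = 0.0126 by edgeR) and that in SM6 1.87 (adjusted p = 0.0472 by edgeR). In that fit the median over members was 1.39 in SM6, -1.85 in Lgr5-GFP and -2.95 in the difference of the age effects. With all 12 libraries the medians were 1.70, -1.55 and -2.98. Paneth levels still differed among the 10 libraries left, and the part of Paneth cells in the class II values was not tested.

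Markers of enterocytes, goblet cells and enteroendocrine cells also had differences in the class II direction. In SM6, 12 of 12, 8 of 8 and 10 of 10 were above 0, and in Lgr5-GFP 3, 1 and 2 were. In the difference of the age effects, enterocyte markers were below 0 in 12 of 12 with a median log2 of -1.88 and 5 calls, Lct, Apoa1, Alpi and Sis among them. Goblet cell markers were below 0 in 8 of 8 with a median of -1.70 and 3 calls, Agr2, Muc2 and Spink4, and enteroendocrine markers in 10 of 10 with a median of -1.74 and 1 call, Sct. Tuft cell markers had a median of -2.22 and no call among 8 tested. ISC markers went the other way, above 0 in 14 of 17 with a median of 0.25, 6 at an unadjusted p under 0.05 and no call. In SM6, 4 enterocyte genes, Sis, Alpi, Fabp1 and Fabp2, and 5 goblet cell genes, Agr2, Tff3, Muc2 and Zg16 among them, rose in old mice, and 4 of 17 ISC markers, Msi1, Olfm4, Sox9 and Znrf3, fell. In Lgr5-GFP, 3 enterocyte genes, Apoa4, Lct and Apoa1, fell in old mice, while 3 of 12 were above 0, Fabp1 at a log2 of 2.59 that did not pass. The enterocyte sum was 2438 ± 662 CPM in young and 5619 ± 5467 CPM in old Lgr5-GFP. No goblet cell or ISC marker passed. Olfm4 was at 10728 ± 1308 CPM in young and 5995 ± 579 CPM in old SM6. The r of the summed enterocyte, goblet and ISC markers with the class II reference was -0.03, 0.386 and -0.30 over 12 libraries, and those of tuft cell, enteroendocrine and cell cycle genes were 0.246, -0.08 and -0.17. The part of these cells in the class II values was not tested.

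**Figure D5:**
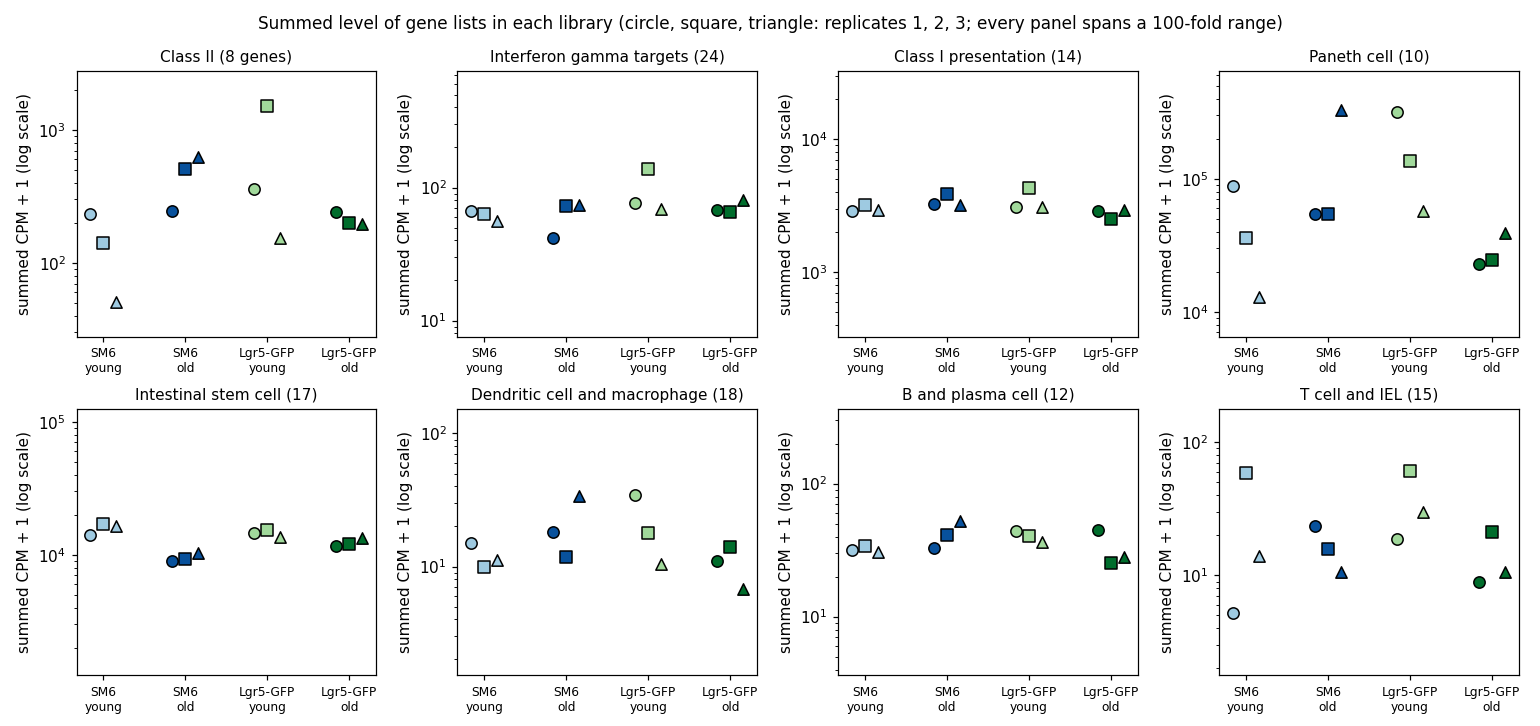
Summed CPM + 1 of class II genes and of 7 other gene lists in each of the 12 libraries, on log axes that each span a 100-fold range, with colours for groups and shapes for replicates. The class II sum runs from 49.9 to 1524 CPM and the Paneth sum from 12824 to 328320 CPM, while the dendritic cell and macrophage sum stays at or below 33.4 CPM.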

How the data were processed

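The deposited table held whole-number read counts per gene, which the authors made by aligning reads to GRCm38 (mm10) with STAR 2.4.2a and counting over exons of a GENCODE annotation with featureCounts. Libraries carried molecular identifiers, and whether reads were collapsed by them or counted by strand was not stated. Samples were grouped by their labels. Gene symbols were matched for 54079 of 54232 gene IDs. The members and all gene lists were chosen with earlier results of these data known.

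Genes with more than 5 reads and at least 1 CPM in any library were kept (13368). Counts were scaled by TMM and fitted with edgeR 4.0.16 (quasi-likelihood, 1 mean per group, all 12 libraries, two-sided, R 4.3.3), with Benjamini-Hochberg adjustment over all genes and a threshold of 0.05. The fit was tested on simulated counts. CPM used TMM-scaled totals. Alternatives used DESeq2 1.42.0 and limma 3.58.1. Same-numbered replicates of young and old groups did not deviate together (r from -0.04 to 0.02) and were not paired. All 8 members are named. Where called genes of a list are named, they are at most 4 per comparison, those of smallest adjusted p, and other genes of the lists given with values were chosen after these were seen. Promoters came from RefSeq GRCm38.p6, and gene positions from GENCODE on GRCm38. Intervals on 0 counts cover counting error only.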

Additional observations from a re-analysis of the deposited data

Results flagged for a closer look

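The age effect of Cd74 differed between the 2 isolations by an interaction test. It was 2.14 on the log2 scale in SM6 and -1.55 in Lgr5-GFP, a difference of -3.70 (SE 0.73, adjusted p = 0.0128 by edgeR's quasi-likelihood test with Benjamini-Hochberg adjustment), and 5 of the 6 old and young libraries of Lgr5-GFP lay between 73.3 and 167 CPM. Strain and isolation cannot be told apart in it.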

How the results depend on the processing

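Of 921 alternatives for single members, 833 kept direction and side of the threshold, 58 gained a call, 9 lost one and 21 changed sign, 19 of these in the average age effect, where values lay near 0. The number of members called in SM6, 1 in the report, was 5 with no filter on low counts, 2 with the likelihood ratio test, 2 with the replicate block, 3 with only the 6 SM6 libraries, 0 with the robust fit and 0 to 3 with a library left out. In Lgr5-GFP, 0 in the report, it was 4 with no filter, 1 with the likelihood ratio test, 1 without the 2 libraries of highest Paneth level and 0 to 2 with a library left out. In the average it was 1 with no filter. In the difference of the age effects, 1 in the report, it was 2 with library totals alone, 6 with no filter, 2 with at least 1 CPM in 3 libraries, 4 with the likelihood ratio test, 3 with the replicate block, 0 with DESeq2, limma voom or the robust fit and 1 to 6 with a library left out. At 2 months it was 1 with totals alone, 6 with no filter, 1 with 1 CPM in 3 libraries, 2 with the likelihood ratio test, 1 without the libraries of highest Paneth level and 0 to 2 with a library left out, and at 22 months 3 with no filter. With no filter the calls over all genes rose too, from 323 to 603 in SM6, from 63 to 274 in Lgr5-GFP, from 355 to 590 in the average, from 88 to 224 in the difference of the age effects, from 12 to 125 at 2 months and from 96 to 228 at 22 months. The cause was not tested.

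The sources used here do not say that the replicate numbers pair the mice. In the fit with replicate numbers as a block, the difference of the age effects of Cd74 was -3.15 (adjusted p = 0.00604, edgeR). No block could be fitted for the comparisons between isolations.

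With a library left out, the median of members ran from -2.03 to -0.24 in Lgr5-GFP, from -3.96 to -1.82 in the difference of the age effects and from 0.91 to 2.79 at 2 months, the nearest to 0 always without the second Lgr5-GFP young library. At 22 months it ran from -1.28 to -0.61, the nearest to 0 without the third SM6 old library. Signs changed in Lgr5-GFP for H2-Aa (-2.60 to 0.065) and H2-DMb1 (-1.25 to 0.24), and in the average for H2-Aa (-0.37 to 0.96), H2-Ab1 (-0.72 to 0.25), H2-Eb1 (-0.046 to 0.79), H2-DMa (-0.26 to 0.35) and Ciita (-0.64 to 0.24). In the average, H2-Aa was 0.70 with limma voom and 0.32 with the block, H2-DMa was 0.0013 with DESeq2's size factors, 0.011 with totals alone, 0.15 with limma voom and 0.089 with the block, and H2-Eb1 was -0.081 without the libraries of highest Paneth level. The median r between members was 0.806 without the farthest libraries. Scaling by totals alone moved the median of all genes to -0.16 in SM6, 0.16 in Lgr5-GFP, 0.35 in their difference, -0.15 at 2 months and 0.21 at 22 months.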
